A study of Mus musculus with 2 samples.

Results

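Shared promoter peaks are the stretches of open chromatin that were called at gene starts in the kidneys of both groups of embryos. A peak of the Enl-WT library was counted as one when it overlapped a peak of the Enl-T1 library by at least 1 bp, lay on chromosomes 1 to 19, and came within 1 kb of the annotated transcription start site (TSS) of a protein-coding gene. The rule found 14220 of the 159560 Enl-WT peaks, which were paired with 14494 of the 130027 Enl-T1 peaks. They lay within 1 kb of the starts of 14167 genes, or 68.2% of the 20780 autosomal protein-coding genes. Of these genes 12666 had 1 shared promoter peak, 1450 had 2 and 51 had 3 or more. The rule used position and the presence of a peak in both libraries. Peaks were called from each library's own reads, so the rule favours promoters with signal in both libraries. Start sites with a peak within 1 kb in Enl-WT only (595) or in Enl-T1 only (167) were left out.

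The samples were whole embryonic kidneys of E15.5 mice, profiled by single-nucleus ATAC-seq, in which a transposase cuts accessible DNA and the cuts are read nucleus by nucleus. Enl-T1 embryos were Enl flox-T1/+ Wt1 GFPCre/+ and Enl-WT embryos were Enl +/+ Wt1 GFPCre/+, so both groups carried a Wt1-GFPCre knock-in that inactivates 1 Wt1 allele. Enl (Mllt1) encodes a reader of acylated histones that recruits elongation factors, and T1 is an insertion in its reader domain found in Wilms tumour, a kidney cancer of childhood. Cre under the control of Wt1 acts in the nephron and stromal lineages, so ureteric epithelium and endothelium in the same tissue carry the unrecombined allele. Each group was 1 library, and the number of embryos behind it was stated neither in the labels nor in the methods.

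A promoter is the stretch of DNA around a TSS where RNA polymerase II and general transcription factors assemble. Many mammalian promoters lie in CpG islands, which are rich in the dinucleotide CpG, are kept free of DNA methylation and are open in most cell types. Other promoters are poor in CpG and tend to open in the cells that use the gene. Factors of the Sp/KLF, ETS, NRF1 and NFY families bind short motifs close to many start sites, whereas HNF1, AP-1 and Hox factors are better known at sites used by particular cell types.

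Nuclei were taken as barcodes of 2000 to 100000 counts. This left 9472 nuclei for Enl-WT, with a median of 14789.5 counts, and 12635 nuclei for Enl-T1, with a median of 8753. The Enl-T1 number exceeds the 10000 nuclei that the labels give as loaded, so some of its barcodes may not be single nuclei. All values per nucleus below are values per barcode in this sense. A count is a cut site, and 2 counts stand for about 1 fragment. Of the listed barcodes, 169 occurred in both libraries (1.76% of Enl-WT and 1.26% of Enl-T1). With 1 library per group no difference below has a replicate check, nuclei are not replicates, and no test of the condition was possible. All intervals are 95% intervals. Those of single promoters and of shares of counts are on fragments and cover counting error only. Those of medians are read from the ordered values of the members, and those of recovered peaks are over peaks. The last 2 kinds treat peaks of 1 pair of libraries as separate draws. No interval covers variation between embryos.

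To show what such promoters look like, the 150 bases upstream of the TSS are given for 7 members, 5′ to 3′ on the strand of the gene, from the GRCm38 reference. Capitals mark matches, on either strand, to any of 13 short motifs searched: the Sp/KLF letters GGGCGG, the ETS letters CCGGAAG, the NRF1 letters GCATGCGC, the NFY letters CCAATCA, the YY1 letters AAGATGG, the CRE palindrome TGACGTCA, the ZBTB33 palindrome CTCGCGAG, the E-box palindrome CACGTG, the TATA box TATAAA, the AP-1 letters TGANTCA, the HNF1 letters GTTAATNA, the HNF4 letters AAAGTCCA and the Hox letters TTTATGG. A match is a run of letters and not a shown binding site. Sp1 encodes a founding member of the Sp/KLF family and had one of the highest counts of all members, Mllt1 is the gene that carries the mutation, Hist1h1e encodes a linker histone, Anks4b and Slc22a6 were among the promoters with the lowest Enl-T1 to Enl-WT ratio, Cdyl had the highest ratio, and Col3a1 is a collagen gene of stromal cells. The stretches lie at chr15:102405993-102406142 (+ strand), chr17:56935416-56935565 (- strand), chr13:23622559-23622708 (- strand), chr7:120173708-120173857 (+ strand), chr19:8617889-8618038 (+ strand), chr13:35659683-35659832 (+ strand) and chr1:45311388-45311537 (+ strand), and end at the base before the TSS.
Sp1: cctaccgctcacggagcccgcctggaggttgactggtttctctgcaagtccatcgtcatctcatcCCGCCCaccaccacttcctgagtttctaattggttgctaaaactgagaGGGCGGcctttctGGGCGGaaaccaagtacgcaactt
Mllt1: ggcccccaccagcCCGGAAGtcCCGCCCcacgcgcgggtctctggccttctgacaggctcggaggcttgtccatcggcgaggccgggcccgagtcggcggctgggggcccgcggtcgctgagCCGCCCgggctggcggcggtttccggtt
Hist1h1e: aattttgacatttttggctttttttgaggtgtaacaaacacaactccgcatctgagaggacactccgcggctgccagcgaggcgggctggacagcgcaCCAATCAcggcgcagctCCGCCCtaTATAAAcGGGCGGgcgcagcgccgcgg
Anks4b: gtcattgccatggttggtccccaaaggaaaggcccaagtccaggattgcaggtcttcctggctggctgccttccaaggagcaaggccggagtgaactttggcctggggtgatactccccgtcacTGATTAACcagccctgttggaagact
Slc22a6: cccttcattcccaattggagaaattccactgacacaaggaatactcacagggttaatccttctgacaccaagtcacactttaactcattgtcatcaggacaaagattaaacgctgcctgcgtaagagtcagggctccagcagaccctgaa
Cdyl: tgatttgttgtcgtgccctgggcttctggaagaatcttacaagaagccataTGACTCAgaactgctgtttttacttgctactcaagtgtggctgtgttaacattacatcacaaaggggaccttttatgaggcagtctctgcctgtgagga
Col3a1: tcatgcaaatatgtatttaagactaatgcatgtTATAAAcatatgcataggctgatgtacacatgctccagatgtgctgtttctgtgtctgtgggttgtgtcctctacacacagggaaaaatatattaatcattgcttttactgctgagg

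The first 3 stretches held many CpG and the last 4 held few. The Sp1 stretch held 8 CpG and 3 GGGCGG matches, 24, 37 and 85 bases upstream of the TSS. The Mllt1 stretch held 20 CpG, 2 GGGCGG matches and the ETS match. The Hist1h1e stretch combined CCAATCA 52 bases and TATAAA 27 bases upstream with 2 GGGCGG matches and 15 CpG. The HNF1 match of Anks4b, whose product organises the brush border of epithelial cells, lay 26 bases upstream in a stretch with 2 CpG. Slc22a6 had 2 CpG and no match, Cdyl had 1 CpG and an AP-1 match 99 bases upstream, and Col3a1 had no CpG at all.

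The same contrast ran through the whole set. In the 300 bp at the centre of the peak, shared promoter peaks had a median GC content of 64.3% against 48.7% in the 95313 other shared autosomal peaks. Their median CpG content, as the observed number over the number that the base composition predicts, was 0.77 against 0.24. A ratio of at least 0.6, taken here as CpG-rich, was found in 70.5% of shared promoter peaks and in 5.37% of the other shared peaks. Shared promoter peaks were therefore mostly CpG-rich, and other shared peaks mostly were not.

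The motifs divided along the same line. GGGCGG lay in the central 300 bp of 62.9% of shared promoter peaks and 11.03% of other shared peaks. The ETS letters were found in 14.2% against 2.33%, the NRF1 letters in 3.73% against 0.62% and the NFY letters in 7.98% against 3.58%. The other way round, AP-1 letters were found in 3.97% of shared promoter peaks against 10.97%, Hox letters in 1.44% against 6.002%, HNF1 letters in 1.09% against 4.42% and TATAAA in 4.75% against 15.9%. Of the 20807 windows at all autosomal gene starts, described next, 43.7% held the Sp/KLF letters, 11.03% ETS, 3.45% NRF1, 8.62% NFY, 6.24% YY1, 2.43% CRE, 1.22% ZBTB33, 7.82% E-box, 12.7% TATA, 6.88% AP-1, 2.34% HNF1, 1.22% HNF4 and 2.50% Hox letters. The Sp/KLF, ETS and NRF1 letters contain CpG, so their shares move with CpG content by construction.

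CpG content also went with whether a gene start had a shared peak at all. Windows of 300 bp, from 250 bp before to 50 bp after the TSS, were taken at 20807 autosomal start sites. A shared peak lay within 1 kb of the TSS for 18.5% of the windows with a CpG ratio under 0.2 and 49.4% from 0.2 to 0.4. The share was 82.9% from 0.4 to 0.6, 95.1% from 0.6 to 0.8 and 97.8% at 0.8 or more. Such a peak need not touch the window itself. The 5839 windows without a peak in either library had a median CpG ratio of 0.15 and held TATAAA in 24.9% of cases, against 0.72 and 7.54% in the 14185 windows with a shared peak. Nearly every CpG-rich start thus had a shared peak within 1 kb, and most CpG-poor starts had no peak that near in either library.

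**Figure D1:**
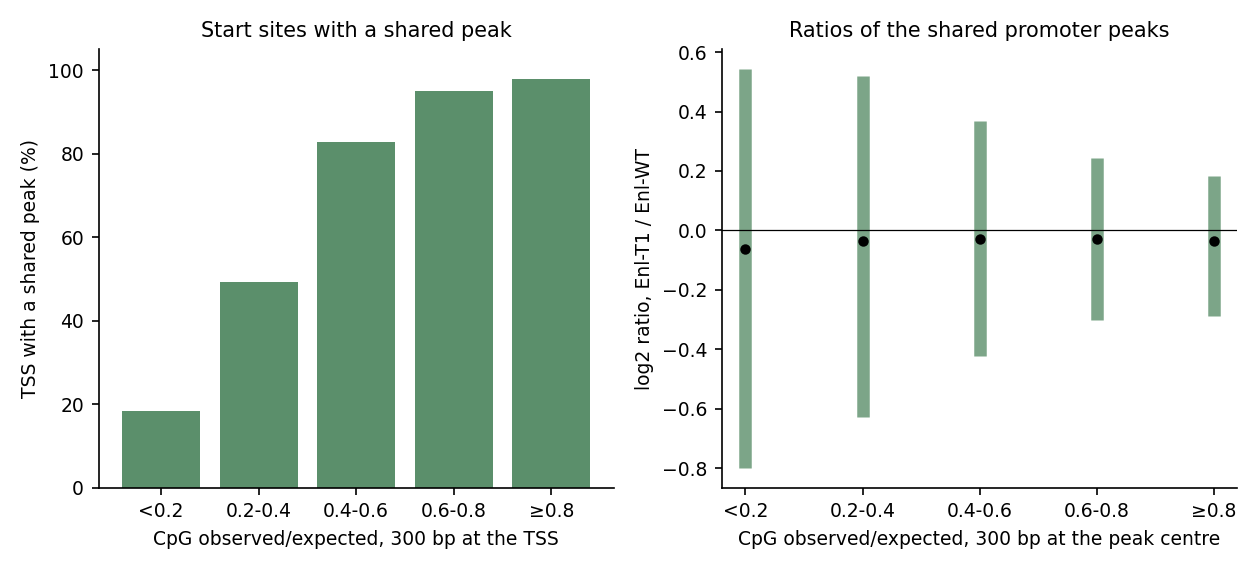
CpG content of gene starts and of shared promoter peaks. Left, bars give the percentage of autosomal protein-coding TSS with a shared peak within 1 kb, by CpG observed over expected, rising from 18.5% to 97.8%. Right, points give the median log2 ratio of Enl-T1 over Enl-WT of the members in each CpG class. Lines give the 5th to 95th percentile, which narrows from a span of 1.34 to 0.47.

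Shared promoter peaks were among the strongest peaks of both libraries. Counts were scaled to CPM, which is the count of a peak divided by the library's total in shared peaks and given per 1000000. Members had a median of 23.9 CPM in Enl-WT and 23.7 CPM in Enl-T1, and other shared peaks had 4.30 and 4.49 CPM. The members themselves ranged from 0.70 to 240.9 CPM in Enl-WT and from 0.74 to 246 CPM in Enl-T1. The strongest 10% of members held 27.0% of the members' counts for Enl-WT and 26.4% for Enl-T1. Levels therefore spread widely within the class, by about the same amount in both groups.

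The highest counts lay at genes of broadly used regulators and at a repeat-rich locus. The peak at the predicted gene Gm10800 on chromosome 2 was highest, with 240.9 CPM in Enl-WT and 246 CPM in Enl-T1, and a neighbouring peak of the same gene had 167 and 188 CPM. This locus resembles satellite repeats and is known for artificially high signal in sequencing assays. Next came Zbtb20, a zinc finger repressor, with 179 CPM in both libraries, and Sp1 with 173 and 167 CPM. Hdgfl2, a reader of methylated histones, had 169 CPM in Enl-WT over 2134 bp and 140 CPM in Enl-T1 over 977 bp. Klf10, a Krüppel-like factor, had 169 and 152 CPM over 2883 bp and, in 2 joined Enl-T1 peaks, 2438 bp. Zbtb20 and Sp1 had peaks of like width in both libraries, and Hdgfl2 and Klf10, which were lower in Enl-T1, had narrower ones there.

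Openness per nucleus was low for any single promoter, since each nucleus yields few fragments. After each nucleus was thinned to 2000 counts in shared peaks, which left out 35 Enl-WT and 62 Enl-T1 nuclei, the median member had a count in 4.18% of Enl-WT nuclei and in 3.92% of Enl-T1 nuclei. The Sp1 promoter was open in 26.3% and 24.7% of thinned nuclei and the Mllt1 promoter in 9.24% and 7.76%. Without thinning the medians were 14.04% and 9.40%, at unequal depth.

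Number and arrangement of start sites went with level. Peaks next to 2 or more TSS made up 10.2% of members and had a median of 37.1 CPM in Enl-WT and 36.8 CPM in Enl-T1, against 22.4 and 22.1 CPM with 1 TSS. The 806 members with start sites on opposite strands running away from each other, called divergent promoters, had 39.4 and 38.9 CPM. In 82.4% of members the TSS lay inside the Enl-WT peak, and these had 27.3 and 26.8 CPM against 10.1 and 9.72 CPM where it lay outside. Among 10304 members paired 1 to 1 with a single TSS inside, the peak reached a median of 471 bp upstream and 516 bp downstream in Enl-WT, and 449 and 465 bp in Enl-T1. At the median, the open stretch thus reached about as far before the TSS as after it, in both libraries. These members were kept because the TSS lay inside the Enl-WT peak, which by itself limits both reaches. Medians also leave out the spread between members, so whether single peaks were centred on the TSS was not tested.

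Promoter motifs that marked the class also went with level within it. The 206 members with the ZBTB33 letters had a median of 39.4 CPM in Enl-WT and 39.0 CPM in Enl-T1, and the 1135 with the NFY letters had 36.8 and 36.9 CPM. The 8937 members with GGGCGG had 29.4 and 28.9 CPM against 14.1 and 13.8 CPM in the 5283 without it. Members with TATAAA had 13.9 and 14.1 CPM, those with AP-1 letters 12.2 and 12.1 CPM, and the 155 with HNF1 letters 9.98 and 9.09 CPM. Members with the ZBTB33, NFY or Sp/KLF letters were thus stronger than the median member, and members with TATA, AP-1 or HNF1 letters weaker, in both libraries. Level also rose with CpG ratio. Members below 0.2 had a median of 6.125 CPM in Enl-WT and 5.82 CPM in Enl-T1, and those at 0.8 or more 33.0 and 32.4 CPM. The Sp/KLF and ZBTB33 letters contain CpG, and the motifs were not compared at like CpG content.

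Peaks at gene starts were found again in the other library more often than peaks elsewhere. Of 15306 Enl-WT promoter peaks, 14220 (92.9%, Clopper-Pearson interval 92.49 to 93.31%) overlapped an Enl-T1 peak, against 67.5% of 141139 other autosomal peaks. Of 14706 Enl-T1 promoter peaks, 14304 (97.3%, 96.99 to 97.52%) overlapped an Enl-WT peak, against 85.1% of the others. Most of this went with strength. Between 4 and 8 CPM, taken here of all counts in peaks, 87.5% of Enl-WT promoter peaks and 88.5% of other peaks were shared, and at 16 CPM and over 99.7% and 99.4%. At like levels promoter peaks were thus recovered about as often as other peaks in Enl-WT. In Enl-T1 the shares were 71.0% and 58.4% below 2 CPM, over 155 and 10889 peaks, 85.9% and 79.9% from 2 to 4 CPM, and 92.8% and 93.5% from 4 to 8 CPM.

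Members were called narrower in Enl-T1. The median width was 976 bp in Enl-WT and 901 bp for the paired Enl-T1 peaks, and other shared peaks had 974 and 901 bp, so the other peaks were narrower in Enl-T1 too. Of 13740 members paired 1 to 1, 9482 (69.0%) were narrower in Enl-T1. Width moved with the ratio of counts: across these 13740 peaks the log2 width ratio and the log2 count ratio had a Spearman correlation of 0.50 and a Pearson correlation of 0.50. Across the 10671 with a reciprocal overlap of at least 80% these were 0.32 and 0.27. Counts were summed over each library's own called peak, so a wider call can hold more counts by construction. The peaks share the same pair of libraries and are not replicates. Widths are given beside many of the promoters named here, and one without them need not have had peaks of equal width. When counts were divided by width, Hdgfl2, Klf10, Nes, Foxd1, Cdk9, Ell3, Gapdh, Rps14, Fosl2, Cdk1 and Max, whose CPM was lower in Enl-T1, came out higher there.

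The share of the library held by promoters depended on what it was taken of. Shared promoter peaks held 36.4% of all counts in peaks in Enl-WT (36.36 to 36.38%) and 37.5% in Enl-T1 (37.45 to 37.48%), over 9.28% and 11.3% of the called length. Enl-WT had more peaks of its own, which took 11.2% of its counts against 5.10% in Enl-T1. Of the counts in shared peaks alone, the members held 41.0% in Enl-WT (40.95 to 40.98%) and 39.5% in Enl-T1 (39.47 to 39.49%). The order of the libraries thus turned with the denominator.

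Single nuclei showed the same. As a share of all counts in peaks, the median nucleus had 36.1% in shared promoter peaks in Enl-WT and 37.1% in Enl-T1, with 5th to 95th percentiles of 30.9 to 41.3% and 32.1 to 42.0%. Among nuclei of 7500 to 10000 counts the medians were 35.3% over 706 nuclei and 37.1% over 4183. As a share of counts in shared peaks the same nuclei had 39.9% and 39.2%. The spread between nuclei of 1 library was wider than the distance between the libraries under either denominator.

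**Figure D2:**
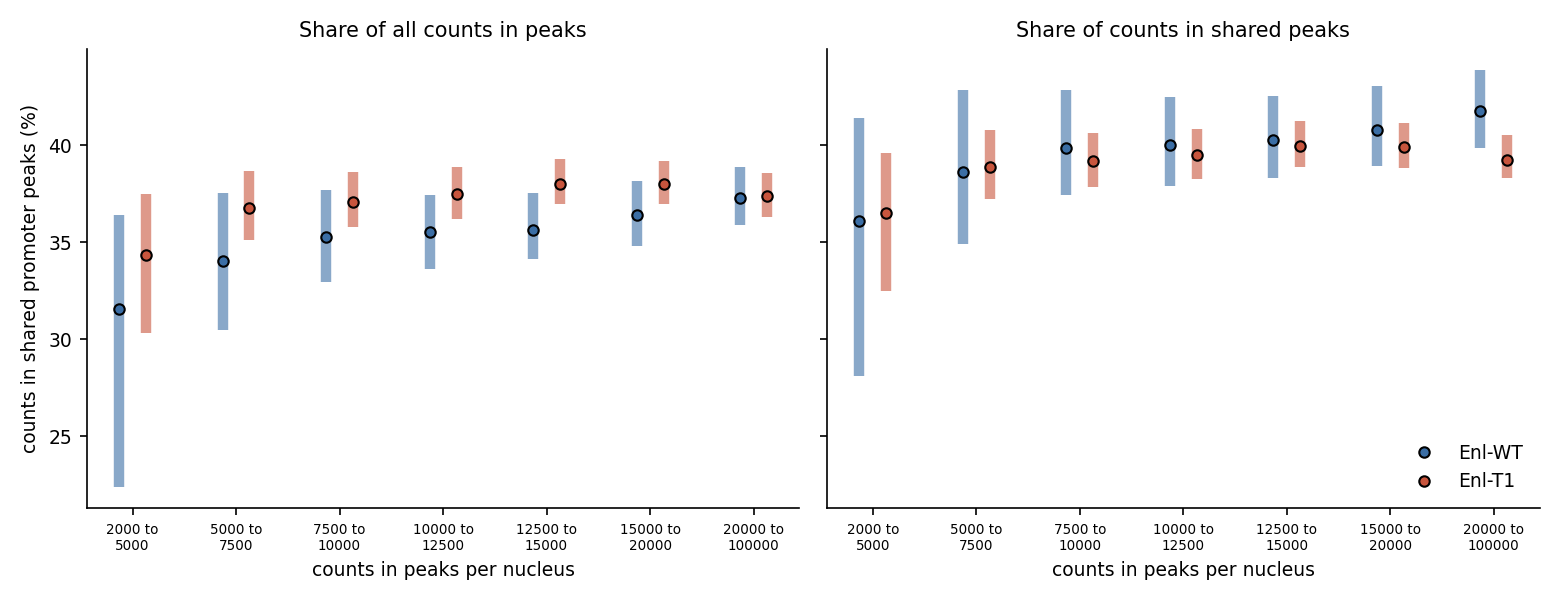
Share of the counts of a nucleus that lay in shared promoter peaks, by the nucleus's total counts in peaks. Points are medians and bars run from the 25th to the 75th percentile of nuclei; as a share of all counts in peaks (left) Enl-T1 medians lay above Enl-WT, and as a share of counts in shared peaks (right) they lay below it from 7500 counts upward.

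Which promoters differed between Enl-T1 and Enl-WT was then compared as the log2 ratio of CPM, with 0.5 counts added. In bulk sums of this kind, fewer nuclei of a cell type and less opening per nucleus cannot be told apart. The median ratio over the 14220 members was -0.033 (-0.036 to -0.030), with 90% of members between -0.38 and 0.29. Over the other shared peaks the median was 0.064 and 90% lay between -0.61 and 0.87. The span of the middle 90% was thus 0.67 at promoters and 1.48 elsewhere. It was 1.20 for peaks 1 to 10 kb from a TSS, 1.40 from 10 to 100 kb and 1.63 beyond 100 kb. The median of all members hung on the scaling, at 0.064 with all counts in peaks as the total, -0.071 with the median of ratios, -0.072 with TMM and 0.078 when counts were also divided by peak width. The median of all shared peaks was 0.039 here and 0.135 with all counts in peaks as the total.

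The spread was also narrower at promoters when peaks of like counts were compared. Among peaks with 2000 to 4000 counts over both libraries, the span was 0.75 for 2629 members and 1.26 for 11914 other shared peaks. From 4000 to 8000 counts it was 0.48 for 4394 members and 0.82 for 2738 others. In these bins the interval of a single member was a median of 0.30 and 0.21 wide. From 500 to 1000 counts the spans came nearer to each other, at 1.36 and 1.54. So they did at high counts. From 8000 to 16000 counts they were 0.36 for 3670 members and 0.42 for 617 others. From 16000 counts they were 0.29 for 697 members and 0.36 for 95 others. Across members the log2 CPM of the libraries had a Pearson correlation of 0.98, and across other shared peaks 0.89.

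**Figure D3:**
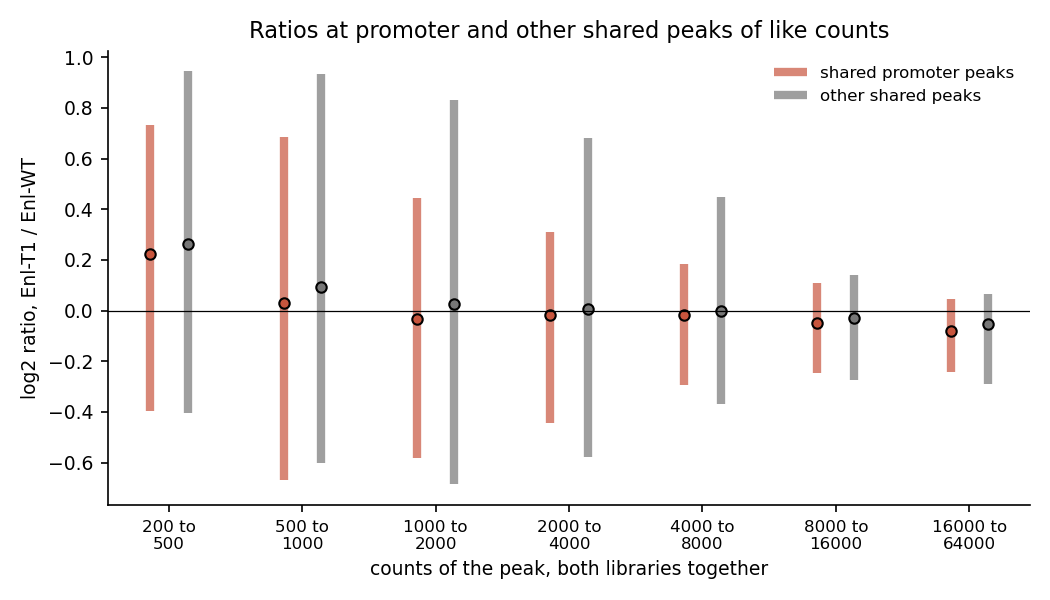
Log2 ratio of Enl-T1 over Enl-WT at shared promoter peaks and at other shared peaks, in bins of the counts of both libraries together. Lines run from the 5th to the 95th percentile and points are medians; with 2000 to 4000 counts the lines span 0.75 and 1.26.

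Within the class the ratios were tighter at the promoters open in more nuclei and at those richer in CpG. Members were ordered by the mean share of thinned nuclei with a count and cut into 5 equal parts. The span fell from 1.16 in the least open part to 0.74, 0.49, 0.39 and 0.33 in the most open part. The parts also differed in level, from a median of 5.50 CPM in Enl-WT in the least open to 58.9 CPM in the most open. Openness was not compared at like counts, so its part in the span cannot be told apart from counting error. By CpG ratio it was 1.34 below 0.2, 1.15 from 0.2 to 0.4, 0.79 from 0.4 to 0.6, 0.55 from 0.6 to 0.8 and 0.47 at 0.8 or more. At 2000 to 4000 counts it was 1.02 for 551 members with a CpG ratio under 0.4 and 0.67 for 1493 CpG-rich members. Divergent promoters spanned 0.38. The median ratio moved little with these, between -0.06 and -0.01 by openness and between -0.06 and -0.03 by CpG ratio. By chromosome the medians lay between -0.05 on chromosome 1 and -0.02 on chromosome 9.

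Few members were past 2-fold. At least 2-fold higher in Enl-T1 were 53 members (0.373%), against 3.03% of the 109533 shared autosomal peaks. At least 2-fold lower were 52 members (0.366%), against 0.923% of all shared autosomal peaks. The split was 72 higher and 36 lower with all counts in peaks as the total, 45 and 60 with the median of ratios, and 45 and 61 with TMM. Of the 53 higher members, 43 shared a wide Enl-T1 peak with another Enl-WT peak, as at Purb, which encodes a single-stranded DNA binding protein and was named after its values were seen, where a peak of 861 bp was set against an Enl-T1 peak of 2025 bp and gave a ratio of 2.72. When all peaks linked by overlap were summed into 1 region, none of those 43 stayed past 2-fold and their median ratio was -0.02, with a range of -0.81 to 0.64. Only 10 higher members were paired 1 to 1, and all 52 lower members were. With a reciprocal overlap of at least 80%, 4 were past 2-fold higher and 17 past 2-fold lower. At like counts the lower shares were closer. They were 1.29% of members and 0.81% of other shared peaks at 500 to 1000 counts, and 1.24% and 1.49% at 1000 to 2000. At 4000 to 8000 counts they were 0.09% and 0.11%. The higher shares in these bins were 1.17% and 4.17%, 0.43% and 3.24%, and 0.41% and 0.69%. The background shares used the same pairing, and those peaks were not joined by overlap.

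Intervals that cover counting error lay above 0 for 1951 members (13.7%), below 0 for 4154 (29.2%) and included 0 for 8115 (57.1%). These shares are the background for the gene lists below.

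The 10 lowest and 10 highest members were taken among 1-to-1 pairs with a reciprocal overlap of at least 50% and at least 200 counts. At the low end, Myo1h, which encodes a class I myosin, had 9.67 CPM in Enl-WT and 3.29 CPM in Enl-T1 (log2 ratio -1.55, interval -1.81 to -1.31) in peaks that overlapped by 0.737 of the wider. Anks4b had 7.38 and 2.56 CPM over 916 and 924 bp (-1.53, -1.82 to -1.24). Phldb2, a cortical anchor of microtubules, had 16.1 and 6.28 CPM (-1.36, -1.55 to -1.18) in a peak 677 bp from the TSS. Anks4b and Phldb2, the latter over 904 and 898 bp, thus had peaks of almost equal width.

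The other low members were ccdc198, Gm28845, Pnmt, Scoc, Olfr214, Scel and Rgs7bp, with ratios from -1.36 to -1.22. The Olfr214 peak lay 462 bp from its TSS. The ccdc198 promoter had 11.1 CPM in Enl-WT and 4.32 CPM in Enl-T1 over 1105 and 893 bp. The Gm28845 and Rgs7bp peaks were narrower in Enl-T1 too, at 1415 and 933 bp and at 1075 and 671 bp. Pnmt, whose enzyme makes adrenaline from noradrenaline, had 8.59 and 3.58 CPM in a peak 763 bp from its TSS. Scel, which encodes the epithelial protein sciellin, had 5.84 and 2.50 CPM. All 10 low members lay between 4.87 and 16.1 CPM in Enl-WT, below the median member.

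Of the 17 members past 2-fold lower with a reciprocal overlap of at least 80%, 3 more are given here, which were picked after the values were seen and stand for no group. Kif12, which encodes a kinesin of renal epithelium, had 19.6 CPM in Enl-WT and 9.16 CPM in Enl-T1 (-1.10, -1.25 to -0.94). Bsnd, the barttin subunit of tubular chloride channels, had 12.5 and 5.61 CPM (-1.16, -1.36 to -0.96). Cdhr2, a cadherin of the brush border, had 9.21 and 4.20 CPM (-1.13, -1.37 to -0.91). The widths in Enl-WT and Enl-T1 were 946 and 1045 bp for Kif12, 898 and 977 bp for Bsnd, and 898 and 852 bp for Cdhr2, so for Kif12 and Bsnd the lower count lay over the wider peak.

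At the high end, Cdyl, which encodes a chromodomain corepressor, had 5.06 CPM in Enl-WT and 16.8 CPM in Enl-T1 (1.73, 1.54 to 1.92) in peaks of almost equal width. Dmrta1, a DM domain transcription factor, had 1.84 and 5.61 CPM (1.61, 1.29 to 1.94) in a peak 967 bp from the TSS. Defb12, a beta-defensin, had 2.37 and 5.94 CPM (1.32, 1.03 to 1.62). In Enl-T1 these 3 promoters lay at unlike levels, from 5.61 to 16.8 CPM.

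Tmco5, Gabra2, Nipal2, Trim12a, Nat1, Foxp2 and Galnt13 completed the 10, with ratios from 1.57 down to 0.99. The peak lay 881 bp from the TSS at Tmco5, 753 bp at Nat1, 388 bp at Gabra2 and 207 bp at Nipal2. Nipal2 had 7.63 CPM in Enl-WT and 15.9 CPM in Enl-T1 over 899 and 1207 bp. Foxp2, a forkhead transcription factor, had 7.82 CPM in Enl-WT and 15.7 CPM in Enl-T1, and its called peak was 513 bp against 839 bp. Galnt13, which starts O-linked glycosylation, had 6.22 and 12.3 CPM over 913 and 863 bp. When counts were divided by width Foxp2 gave 0.29 and Galnt13 kept its size, at 1.07. The high members lay between 1.53 and 7.82 CPM in Enl-WT, so both ends came from promoters below the median level.

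**Figure D4:**
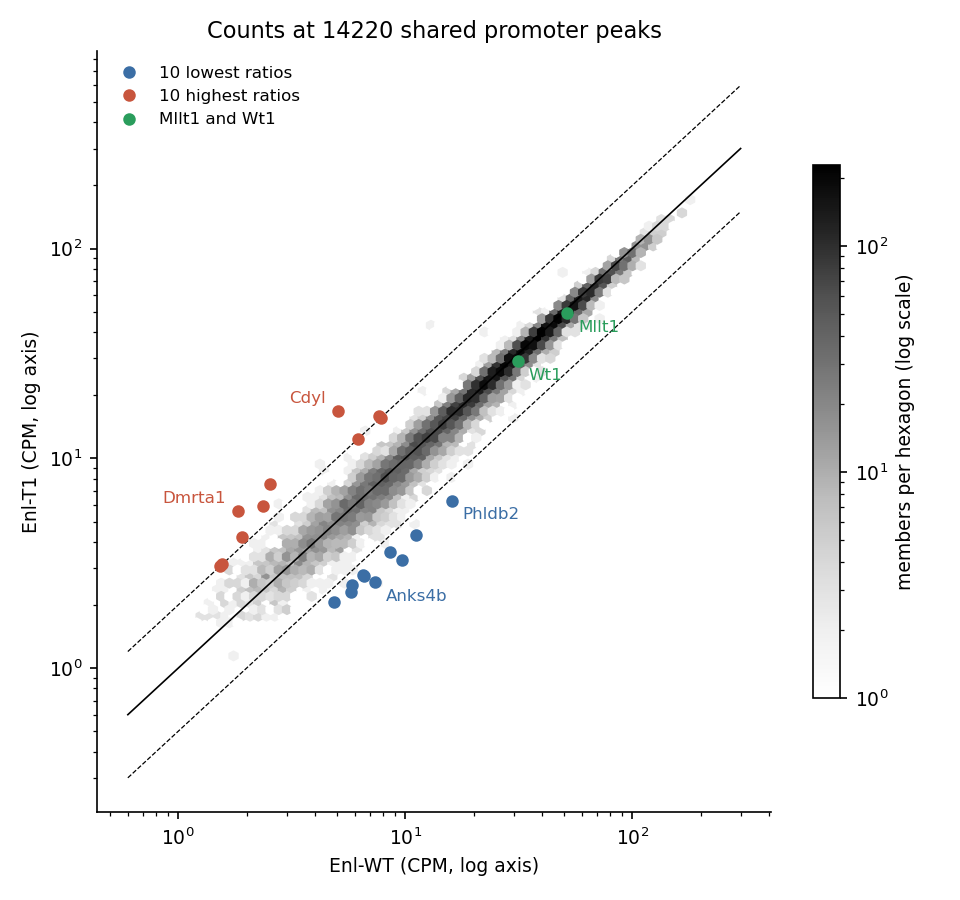
CPM of each shared promoter peak in Enl-WT and Enl-T1, on log axes, with grey hexagons shaded by the number of members. The solid line marks equal levels and the dashed lines a 2-fold difference; coloured points are the 10 lowest and 10 highest ratios among 1-to-1 pairs, which lie below 17 CPM in Enl-WT, and Mllt1 and Wt1.

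Members at both ends of the ratio were poorer in CpG than the class as a whole. Of all members 70.5% were CpG-rich, against 19.2% of the 52 past 2-fold lower, 28.2% of the 362 members paired 1 to 1 at or below -0.5 and 24.9% of the 165 at or above 0.5. HNF1 letters lay in the central 300 bp of 15.4% of the members past 2-fold lower, of 8.29% of those at or below -0.5, of 3.64% of those at or above 0.5 and of 1.09% of all members. HNF1 factors are transcription factors of tubular epithelium. In other shared peaks, mostly not CpG-rich, HNF1 letters lay in 4.42%. TATAAA lay in 17.0% of the members at or above 0.5 and in 6.91% of those at or below -0.5. Hox letters lay in 6.06% and 2.21% of these, against 1.44% of all members. AP-1 letters lay in 9.62% of the members past 2-fold lower, 8.56% of those at or below -0.5 and 10.3% of those at or above 0.5. Of all members 3.97% held AP-1 letters. The 155 members with HNF1 letters had a median ratio of -0.10 and a span of 1.48, against -0.03 and 0.66 without. The sets past a ratio were chosen by the ratio and not compared at like CpG content, and the shares are a description.

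The genes of the mutation and of the Cre driver were close to equal, and both signs turned when counts were divided by width. The Mllt1 promoter had 51.8 CPM in Enl-WT and 49.3 CPM in Enl-T1 (-0.07, -0.15 to 0.00). The Wt1 promoter had 31.4 and 29.0 CPM (-0.11, -0.21 to -0.01). A promoter peak does not read the inserted bases, so these values do not check the genotype.

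Gene lists of kidney cell types were followed next, first for the nephron. Over 13 alternative settings the median kept its sign in all 13 for the proximal tubule, distal tubule, committing nephron, stroma, erythroid, Hox and histone lists, and turned in at least 1 for each of the others. The settings reuse the same 2 libraries. Intervals of the median over the genes of a list included 0 for distal tubule (-0.68 to 0.25), committing nephron (-0.22 to 0.41), stroma (-0.08 to 0.26) and Hox (-0.12 to 0.37). The histone interval did not (0.06 to 0.12), but 59 histone genes shared 50 members, so these genes are not separate draws. The proximal tubule and erythroid lists were too short for one. Proximal tubule genes had a shared promoter peak at 5 of 12 genes, with a median ratio of -0.32, and 3 of 5 intervals below 0. Slc22a6, the organic anion transporter of proximal tubules, had 4.17 CPM in Enl-WT and 1.79 CPM in Enl-T1 (-1.22, -1.58 to -0.87), and was the 1 member past 2-fold among all lists. Fbp1, a gluconeogenic enzyme, had 8.59 and 5.70 CPM (-0.59, -0.80 to -0.38). Lrp2, which encodes the endocytic receptor megalin, had 17.5 and 14.03 CPM (-0.32) over 933 and 795 bp, while Aqp1 and Slc4a4 differed by less than 0.01. The genes without a shared promoter peak included Hnf4a and Slc34a1.

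Distal tubule and loop genes had a shared promoter peak at 8 of 12 genes, with a median of -0.25, 5 intervals below 0 and none above. Slc12a1, Slc12a3, Umod and Kcnj1 had no such peak. Emx1, a homeobox gene, had 15.9 CPM in Enl-WT and 9.93 CPM in Enl-T1 (-0.68, -0.84 to -0.53) over 1194 and 906 bp. Divided by width, the Emx1 values were 13.34 and 10.96 CPM per kb. Pou3f3, a transcription factor of the developing loop and distal tubule, had 21.1 and 15.2 CPM (-0.47, -0.60 to -0.34) at almost equal width. Irx1 alone lay above 0, with 3.09 and 3.68 CPM and an interval that included 0 (0.25, -0.05 to 0.55). The Irx1 peak lay 624 bp from its TSS.

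Podocyte genes, of the filter cells of the glomerulus, were mixed, with a median of -0.17 over 12 members, 6 intervals below 0 and 1 above. Nphs1, which encodes nephrin of the slit diaphragm, had 5.62 CPM in Enl-WT and 2.89 CPM in Enl-T1 (-0.96, -1.25 to -0.68) over 882 and 703 bp. Nes had 25.1 and 18.6 CPM (-0.44), but its peak was 1367 bp against 833 bp. Synpo, an actin regulator of podocyte foot processes, went the other way, with 5.64 and 8.27 CPM (0.55, 0.35 to 0.76) in a peak 923 bp from the TSS. Over the 8 members with a reciprocal overlap of at least 80% the median was -0.00, against -0.17 over all 12.

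Nephron progenitor promoters were near equal, with a median of -0.03 over 11 members, 3 intervals below 0 and 1 above. Six2, the factor that keeps progenitors self-renewing, had 31.5 CPM in Enl-WT and 31.7 CPM in Enl-T1 (0.01, -0.09 to 0.10). Crym, a thyroid hormone binding protein, had 6.06 and 4.80 CPM (-0.33, -0.57 to -0.10).

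Genes of nephron commitment spread in both directions, with a median of -0.10 over 9 members, 2 intervals above 0 and 3 below. Wnt4, the signal for the mesenchyme to form epithelium, had 25.3 CPM in Enl-WT and 37.0 CPM in Enl-T1 (0.55, 0.45 to 0.65). Sox9 had 25.1 and 33.3 CPM (0.41, 0.31 to 0.51). Lhx1, a homeobox gene of the early nephron, had 19.6 and 12.4 CPM (-0.66, -0.80 to -0.52), with peaks offset from each other (overlap of 0.622 of the wider). The promoters of this list thus did not share a direction.

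Stroma genes had a median of 0.09 over 15 members, with 7 intervals above 0 and 3 below. Those above 0 were at Postn, Col3a1, Col1a1, Lum, Col1a2, Smoc2 and the homeobox gene Meis1, and those below at Foxd1, Acta2 and Ntn1. Postn, which encodes periostin, had 2.69 CPM in Enl-WT and 4.64 CPM in Enl-T1 (0.79, 0.49 to 1.08) over 1010 and 1186 bp. Col3a1 had 8.81 and 12.3 CPM (0.48, 0.31 to 0.65) and Col1a1 had 11.6 and 14.8 CPM (0.35, 0.20 to 0.50), both at near equal width. Foxd1, the marker factor of stromal progenitors, had 27.8 and 21.6 CPM (-0.37, -0.48 to -0.26) over 1437 and 993 bp, and Acta2, smooth muscle actin, had 7.94 and 6.17 CPM (-0.36, -0.57 to -0.16) over 1008 and 849 bp.

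Genes listed as markers of ureteric epithelium and endothelium, which the Cre does not reach, also had ratios on both sides of 0. The counts are sums over whole kidneys, so these ratios cannot be placed in cells without the mutation. The paper also used Gata3 as a marker of the distal tubule, for example. Ureteric epithelium genes had a median of -0.09 over 13 members, with 5 intervals below 0 and 1 above. Cdh16, a cadherin of kidney epithelia, had 20.6 CPM in Enl-WT and 12.5 CPM in Enl-T1 (-0.72, -0.86 to -0.58), and Hoxb7 had 37.7 and 24.9 CPM (-0.60, -0.70 to -0.50) over 1074 and 874 bp, or 35.1 and 28.4 CPM per kb. The Hoxb7 peak lay 578 bp from its TSS. Gata3, a factor of the nephric duct, had 7.83 and 9.38 CPM (0.26, 0.08 to 0.44). Endothelium genes had a median of -0.10 over 11 members, with 4 intervals below 0 and 1 above, from Tie1, an endothelial receptor, with 8.52 and 4.79 CPM (-0.83, -1.05 to -0.61) over 1116 and 926 bp, to Pecam1 with 2.34 and 3.12 CPM (0.41, 0.08 to 0.75) over 758 and 914 bp. Of 8 immune genes 1 had a shared promoter peak, C1qa at 3.83 and 3.70 CPM, and of 4 autosomal erythroid genes 2 had one, so markers of blood cells could hardly be followed at promoters.

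**Figure D5:**
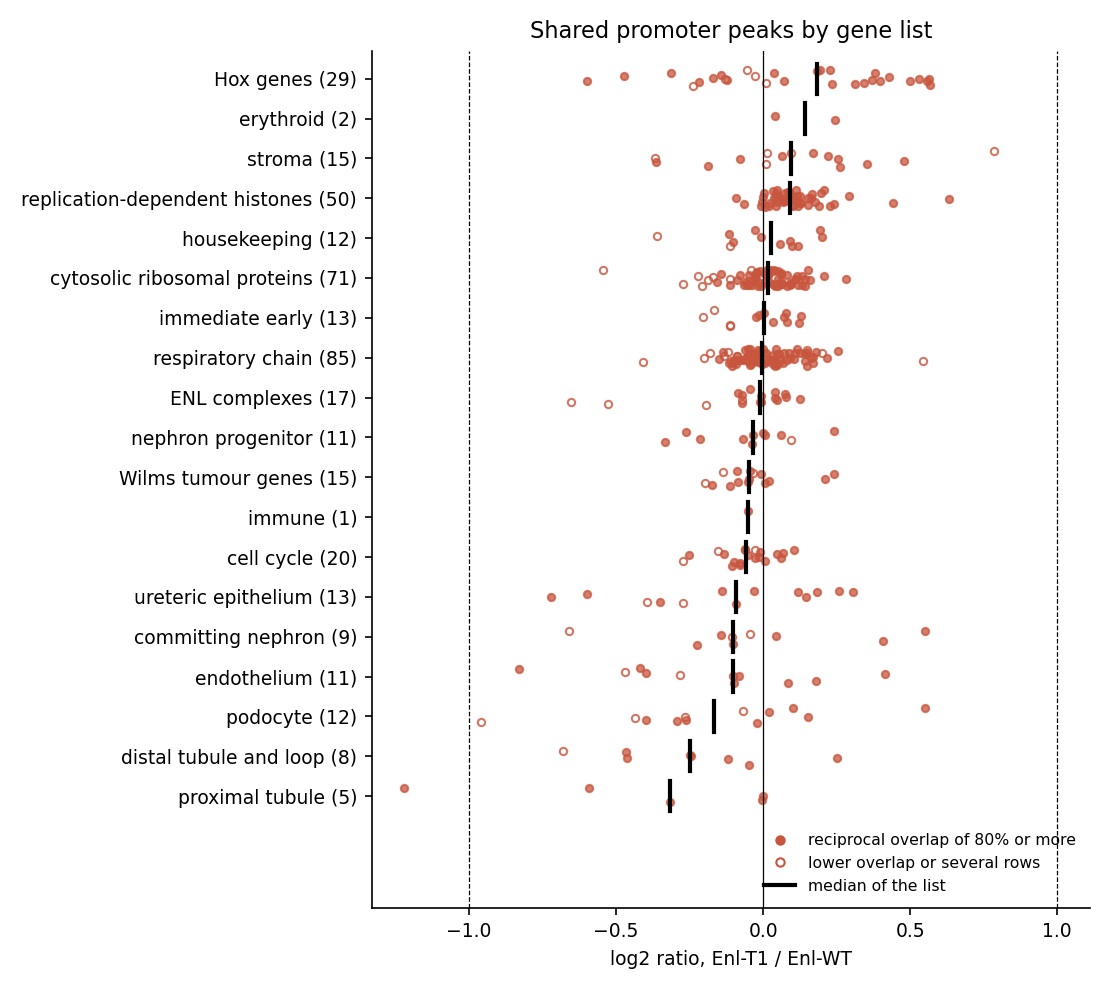
Log2 ratio of Enl-T1 over Enl-WT at the shared promoter peak of each gene of 19 lists, with the number of members in parentheses. Each point is a promoter, filled where the peaks overlapped by at least 80% of both and open otherwise, bars are list medians, and dashed lines mark 2-fold; Slc22a6 of the proximal tubule list is past 2-fold lower and no promoter of a list is past 2-fold higher.

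Hox genes, which give position along the body axis and in the kidney, had promoters on both sides of 0. Their 31 genes with a shared promoter peak had 29 peaks, since Hoxc5 and Hoxc10, and Hoxd3 and Hoxd4, share a peak in this annotation. The median was 0.18, with 14 intervals above 0 and 9 below. Hoxa4 had 37.0 CPM in Enl-WT and 54.9 CPM in Enl-T1 (0.57, 0.49 to 0.65), Hoxc4 had 14.1 and 20.9 CPM (0.56, 0.43 to 0.70), and Hoxa13 had 9.96 and 14.7 CPM (0.56, 0.40 to 0.71) over 1382 and 1178 bp. Hoxa10 had 26.8 and 19.3 CPM (-0.47, -0.59 to -0.36) at equal width, and Hoxa9 had 19.5 and 15.7 CPM (-0.31, -0.44 to -0.18) over 1030 and 857 bp, or 18.97 and 18.35 CPM per kb. By paralogue group, a split made after the values were seen, 8 of 9 intervals of groups 4 to 6 lay above 0 and none below, while groups 9 to 13 had 4 above and 5 below among 11. The peak of Hoxc5 and Hoxc10 counts in both of these sets, and that of Hoxd3 and Hoxd4 counts in groups 4 to 6 and in groups 1 to 3. Within the Hoxa cluster 5 of 10 intervals lay above 0 and 4 below. Neighbouring Hox promoters thus differed in direction, and 14 of 29 above 0 compares with 13.7% of all members.

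Replication-dependent histone genes, which supply the histones of newly copied DNA, leaned one way by a small amount. The median over 50 members was 0.09, with 45 above 0, 21 intervals above 0 and none below, against 13.7% and 29.2% of all members. Hist1h1e had 23.3 CPM in Enl-WT and 25.1 CPM in Enl-T1 (0.11, 0.00 to 0.22), and Hist1h4h had 36.7 and 41.2 CPM (0.17, 0.08 to 0.25). The largest ratio was at Hist1h1t, the testis linker histone, with 3.29 and 5.09 CPM (0.63, 0.36 to 0.90). All but 1 of the 50 were paired with at least 80% reciprocal overlap, and the median stayed above 0 under every scaling that was run, between 0.05 and 0.19.

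Lists of genes used in nearly every cell had medians close to 0. Cytosolic ribosomal protein genes had a median of 0.02 over 71 members, with 14 intervals above 0 and 13 below. Respiratory chain genes had a median of -0.00 over 85 members, with 17 above and 14 below. The member farthest from 0 in each of these lists had peaks of unequal width, Rps14 with 29.0 CPM in Enl-WT and 19.9 CPM in Enl-T1 (-0.54, -0.66 to -0.43) over 1394 and 847 bp and Atp5g2 with 21.9 and 32.0 CPM (0.54, 0.44 to 0.65) over 665 and 854 bp. Housekeeping genes had a median of 0.03 over 12 members, and Gapdh stood apart with 66.9 and 52.2 CPM (-0.36, -0.43 to -0.29) over 1339 and 848 bp. The Gapdh peak lay 382 bp from its TSS. Immediate early genes, which respond to stress and handling, had a median of 0.00 over 13 members, from Fosl2 at -0.20 over 1744 and 850 bp to Junb at 0.13.

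Genes of the ENL protein complexes also had a median close to 0. The median over 17 members was -0.01, with 1 interval above 0 and 6 below. Cdk9, the kinase of the elongation factor P-TEFb, had 68.5 CPM in Enl-WT and 43.6 CPM in Enl-T1 (-0.65, -0.73 to -0.58), but over 1287 and 806 bp. Ell3, an elongation factor, had 19.02 and 13.2 CPM (-0.53, -0.67 to -0.39) over 1312 and 890 bp, in a peak 920 bp from the TSS. Over the 13 members with a reciprocal overlap of at least 80% the ratios lay between -0.08 and 0.13, the highest at Leo1, a subunit of the PAF1 complex, with 25.2 and 27.5 CPM (0.13, 0.02 to 0.23).

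Cell cycle promoters had a median of -0.06 over 20 members, with 8 intervals below 0 and 1 above. Mki67, which encodes the proliferation antigen Ki-67, had 55.3 CPM in Enl-WT and 46.4 CPM in Enl-T1 (-0.25, -0.33 to -0.18) over 1132 and 1005 bp, Cdk1 had 46.7 and 38.7 CPM (-0.27, -0.35 to -0.19) over 1159 and 849 bp, and Top2a, a topoisomerase, had 41.9 and 45.1 CPM (0.11, 0.02 to 0.19). The median turned to 0.039 with all counts in peaks as the total and to 0.015 per kb of peak, so its direction was not kept. Genes mutated in Wilms tumour had a median of -0.05 over 15 members, with 5 intervals below 0 and 2 above. Max, a partner of Myc proteins, had the lowest ratio, -0.20 over 1124 and 893 bp, and Mycn, an oncogene of the Myc family, had 29.6 and 34.2 CPM (0.21, 0.11 to 0.30).

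At the edge of the rule, the 283 members whose peak lay 900 to 1000 bp from the TSS had a median of 8.10 CPM in Enl-WT and 7.56 CPM in Enl-T1 and a span of 1.06. The 272 shared peaks just outside, up to 1100 bp away, had 9.24 and 9.20 CPM and a span of 0.94. Peaks on either side of the limit were thus alike in level, and the members with the TSS inside the peak spanned 0.59.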

How the data were processed

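Reads were aligned by the authors to mm10 with Cell Ranger ATAC 2.1.0, which also called peaks in each library and tallied cut sites by peak and nucleus. These deposited counts are unscaled whole numbers. The labels give 10000 nuclei loaded and 6000 targeted per library, and the study's later filters on nuclei were not applied here.

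Barcodes with 2000 to 100000 counts were summed per library. In all, 138176616 counts lay in peaks in Enl-WT and 110265593 in Enl-T1. Gene starts came from GENCODE M21, and sequences from the RefSeq copy of GRCm38. CPM used each library's counts in shared peaks. Log2 ratios had 0.5 counts added for distributions and none for single promoters. Intervals (95%) were Clopper-Pearson on fragments (counts over 2) or on peaks, and order statistics for medians. Thinning took 2000 counts per nucleus. Named promoters were the 5 of highest CPM per library, the 10 highest and 10 lowest ratios, up to 4 examples per list, Mllt1 and Wt1, and others were named after their values were seen. Members and lists were chosen with earlier results of these data known. Alternatives changed the barcode minimum, scaling, pairing, distance and TSS set. The ratio code was checked on simulated counts. Tools were Python 3.11.15, numpy 2.4.6, scipy 1.17.1, pandas 2.3.3 and samtools 1.23.1. Results for 2 genes of the lists are not reported here.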

Additional observations from a re-analysis of the deposited data

Results flagged for a closer look

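Outside the autosomal comparison, the 3046 peaks on chromosome X held 1.49% of the counts of Enl-WT (1.488 to 1.493%) and the 2395 on chromosome X held 1.5% of those of Enl-T1 (1.497 to 1.504%). The peaks were called separately in each library and the totals hold each library's own peaks, so no order of the libraries is read from these shares.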

How the results depend on the processing

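No paired analysis was possible because each group is 1 library, and for the same reason no library could be left out. Thinning gave no share of library counts, since it draws from shared peaks alone. Under 13 alternatives the counts of members past 2-fold and the spread stayed low and narrow, and the sign of the median did not hold. The median log2 ratio (-0.033) reversed to 0.064 with all counts in peaks as the total and to 0.078 per kb of peak, and was -0.071 with the median of ratios, -0.072 with TMM, -0.011 with 80% reciprocal overlap, -0.027 with each nucleus counted once and -0.029 with a minimum of 5000 counts. The span (0.67) was 0.54 with 80% overlap, 0.61 with each nucleus counted once, 0.78 thinned, 0.63 within 500 bp, 0.75 with every transcript's TSS and 0.74 per kb. The 53 members past 2-fold higher became 4 with 80% overlap, 32 within 500 bp, 93 with every transcript and 10 with peaks joined by overlap, an alternative chosen after seeing the data. The 52 lower became 17, 44, 87 and 62, and 19 per kb. The share of counts (36.4% and 37.5%) was 26.9% and 28.4% with 80% overlap, 33.9% and 35.7% with each nucleus counted once, 34.7% and 35.8% within 500 bp, 41.0% and 42.2% with every transcript, 36.4% and 37.6% from 5000 counts, 37.4% for Enl-T1 from 1000 counts, and, chosen after seeing the data, 41.0% and 39.5% of counts in shared peaks. Recovery (92.9% and 97.3%) was 90.3% and 93.2% when 50% of both peaks had to overlap, 95.1% and 98.3% within 500 bp, and 90.1% and 96.4% with every transcript. Open shares (4.18% and 3.92%) were 14.04% and 9.40% without thinning and 14.5% and 10.2% from 5000 counts. Single values also reversed: the cell cycle median gave 0.039 with all counts in peaks and 0.015 per kb, and Wt1 gave 0.086 per kb. The 20 promoters with the highest or lowest ratios kept their direction under every alternative that held them. For changes other than pairing, overlap and denominator, the cause was not tested.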
